A study of Zea mays with 24 samples.

Results

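Seed tissues of maize (Zea mays) that carry a harvest label of 18 May were compared with the same tissues labelled 27 April, 21 days earlier. The comparison uses replicate 4 (called late here) and replicate 1 (called early) of 5 tissues, which is 10 of the 24 RNA-seq libraries in the series. The tissues were apical scutellum (AS), Endosperm Adjacent to Scutellum (EAS), embryo (Emb), endosperm (End) and pericarp (Per), with 1 late and 1 early library in each. The sixth tissue, the scutellar aleurone layer (SAL), was left out of the test because its replicate 4 has no date, and its values are given only as a description. All 10 samples came from untreated plants labelled wild type B73, an inbred line, and the greenhouse was held at 24 °C (day) and 19 °C (night) under 16 h of light. The series was designed to compare organs, so harvest day is not its stated question. Replicate number and harvest day go together, and the labels give neither the seed's age nor the number of plants behind a sample, so day, seed age, plant and any handling shared by a replicate number cannot be told apart. The year of the early Emb library reads 20 where the other dated libraries read 15.

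A maize kernel joins tissues of different origin: the embryo with its scutellum and the endosperm come from fertilisation, while the pericarp is the maternal wall around them. As a kernel develops, the endosperm fills with starch and storage protein, the embryo stores oil and prepares for drying, and the pericarp ages, so the transcripts of each tissue are known to change with seed age. Plants grown on different days can also differ through light, temperature or the hour of sampling.

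The 10 libraries held between 37575845 and 53254694 reads counted to genes, and gene reads did not differ in a fixed direction between the days (higher late in 4 of 5 tissues). The late library had more features at 1 CPM or above (CPM are counts scaled to library size, here without TMM factors) in 5 of 5 tissues, by 252 ± 188 features (SD, n = 5 pairs; exact sign-flip test, two-sided p = 0.0625, adjusted p = 0.188 over the 6 measures compared). The share of alignment records outside genes was lower late in 5 of 5 tissues, with a mean difference of -0.158 ± 0.0980 percentage points (SD, n = 5 pairs; exact test) with the same p, which is the smallest that 5 pairs can give. The labelled tissues were checked against features enriched at least 8-fold in 1 tissue, or in a pair of tissues, of replicates 2 and 3, which the late against early comparison does not use. The 204 pericarp features summed to 30581 CPM in Per early and 31946 CPM late, against at most 994 CPM in the other 8 libraries. The 193 features shared by AS and Emb lay between 20702 and 28195 CPM in those tissues and at most at 754 CPM elsewhere. The 65 features shared by EAS and End lay between 100955 and 221534 CPM there and at most at 8424 CPM elsewhere. These lists set Per, the embryo tissues and the endosperm tissues apart. The 14 Emb features (1245 and 1390 CPM in Emb, at most 56.9 CPM elsewhere) and the 15 End features (10330 and 7603 CPM in End, 2040 and 956 CPM in EAS) also separated the members of each pair, but 0 features were enriched in AS alone, so AS was checked only as an embryo tissue.

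Across the 5 tissues, with tissue as a block, 180 of 26308 tested features differed between the late and the early harvest day, which is 0.684% (edgeR quasi-likelihood test, adjusted p under 0.05). Of these, 110 rose (0.418%) and 70 fell (0.266%). The test weighs the change against its spread between tissues, with 1 harvest label on each side, and not against the spread between harvests. The risen features rose by a median of 1.52-fold and the fallen ones fell by a median of 1.75-fold. Among the called features, large changes were mostly decreases. At least 2-fold changes were seen in 28 of the fallen and 15 of the risen features, and at least 4-fold changes in 12 and 5. Over all tested features the balance differed, since more lay past 2-fold higher than lower late in each tissue. The shares ran from 1.65% against 1.25% in AS to 5.92% against 2.57% in EAS. The 12 that fell at least 4-fold had a mean of 1.41 to 235 CPM on the early day (median 47.5 CPM), and 8 of them reached 10 CPM. The 5 that rose as much had a mean of 0.770 to 7.14 CPM on the late day, and 0 of them reached 10 CPM. At an unadjusted p under 0.05 the test gave 4218 features (16.0%). The count rests on all 5 pairs together: it was 54 without AS, 90 without EAS, 30 without Emb, 49 without End and 61 without Per. DESeq2 called 793 features from the same counts, and a fit without the tissue block called 0.

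The called features moved the same way in most tissues. Of the 110 risen features 101 were higher late in 5 of 5 tissues, and of the 70 fallen features 66 were lower in 5 of 5, where 15.8% of all tested features moved 1 way throughout. The test selects such features, so these counts describe the calls and are no further evidence for them. The median log2 ratio of the risen features was 0.50 in AS, 0.54 in Emb, 0.63 in EAS, 0.63 in End and 0.61 in Per. The fallen features had medians of -0.47 in AS, -0.76 in Emb, -0.86 in EAS, -0.87 in End and -0.87 in Per. Thus the decrease was smallest in the apical scutellum and close to equal in the endosperm tissues and the pericarp, a difference that was not tested. The fallen features were also the more abundant group, with a median of 53.1 CPM on their higher day against 23.1 CPM for the risen features and 12.9 CPM for all tested features.

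The tissue in which a called feature was most abundant was read from libraries outside the test. By the mean of replicates 2 and 3, 29 of the 70 fallen features (41.4%) were most abundant in End, against 13.6% of all tested features, and 2 (2.86%) were most abundant in AS, against 14.9%. Of the 110 risen features, 39 (35.5%) were most abundant in Per, against 23.4% of the tested ones, and 5 (4.55%) in End. So End, the starch-storing tissue, led among the fallen features and Per, the maternal wall, among the risen ones, as counts with no test. In bulk tissue, fewer cells of a type and less RNA per cell cannot be told apart.

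**Figure D1:**
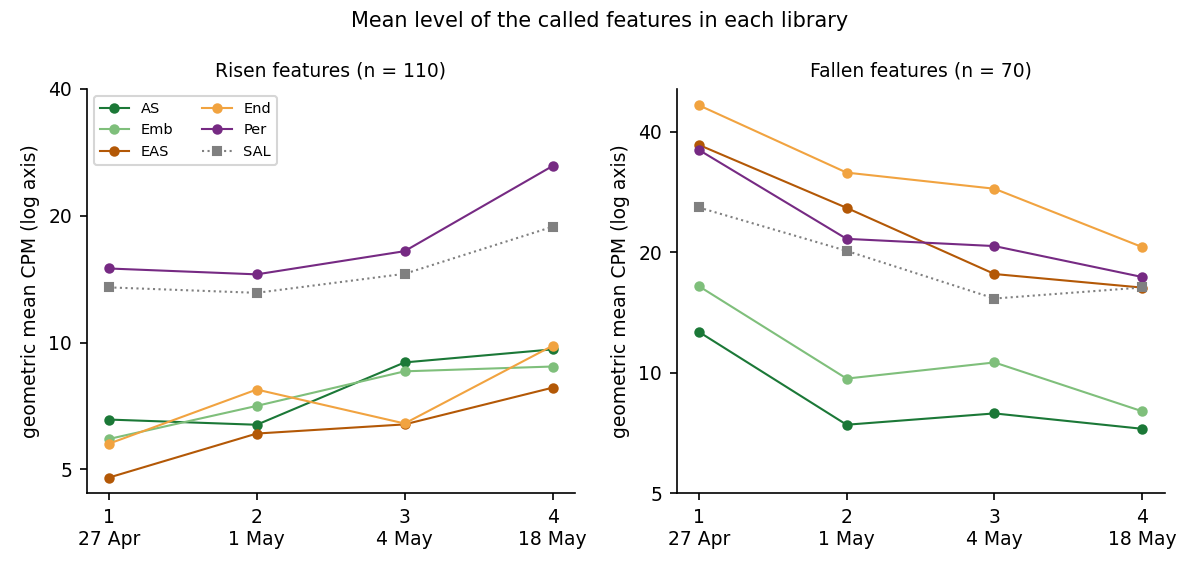
Geometric mean level (CPM, log axis) of the 110 risen and the 70 fallen features in each library, plotted by replicate number, with 1 point per library and 1 line per tissue. Fallen features went from 46.5 to 20.6 CPM in End and from 12.6 to 7.24 CPM in AS between replicates 1 and 4; EAS replicate 3 is labelled 5 April, SAL replicate 4 has no date and SAL was not in the test.

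The replicates between those days, replicate 2 (1 May) and replicate 3 (4 May), showed different courses for the risen and the fallen features. The date of EAS replicate 3 reads 5 April. Of the 70 fallen features, 66 had tissue-averaged levels in both replicates between those of replicates 1 and 4, and in 45 both were nearer to the late level. Replicate 2, harvested 4 days into the 21-day span, lay at a median of 60.5% of the way to the late level and replicate 3 at 71.7%. Of the 110 risen features, 66 also had both replicates in between, but 31 had both nearer to the early level and 13 nearer to the late level. Their median position was 28.7% of the way in replicate 2 and 51.3% in replicate 3. On these medians over tissue averages, the fallen features stood further along at both dates than the risen ones. In all, 40 fallen and 39 risen features changed step by step over the 4 replicates. These positions share their end points with the test, and a position between 2 ends that were chosen to differ is a description.

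By library, the levels took different courses among tissues, with 1 library per replicate number in each, so this was not tested. In EAS the fallen features had a geometric mean of 37.0, 25.8, 17.6 and 16.3 CPM in replicates 1 to 4, and in End of 46.5, 31.6, 28.8 and 20.6 CPM. In AS they went from 12.6 CPM to 7.41, 7.91 and 7.24 CPM, so the difference there lay between replicate 1 and the other three. In Per the risen features stood at 15.0, 14.5 and 16.5 CPM in replicates 1, 2 and 3 and at 26.3 CPM in replicate 4. The AS libraries showed a different step, with 6.57, 6.38, 8.97 and 9.64 CPM, so the rise lay between replicates 2 and 3. In Emb they stood at 5.91, 7.08, 8.55 and 8.78 CPM, so replicate 3 was already close to the late level. In End replicate 3 was lower than replicate 2, at 6.43 against 7.74 CPM, between 5.75 CPM early and 9.83 CPM late.

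SAL gives values for the called features from libraries that had no part in choosing them. Of the 70 fallen features, 67 were lower in SAL replicate 4 than in SAL replicate 1 (95.7%), where 49.7% of all tested features were lower. Their median log2 ratio was -0.42, and 16 of them (22.9%) were at least 2-fold lower, against 2.89% of the tested features. Of the 110 risen features, 76 were higher in SAL replicate 4 (69.1% against 49.4%), with a median log2 ratio of 0.28, and 17 (15.5% against 2.53%) were at least 2-fold higher. SAL has 1 library at each end, so these shares carry no test.

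Replicates 2 and 3 of the 5 tissues are 10 further libraries, harvested 3 days apart by most labels. The same fit called 3 of 26273 features between them (0.0114%), with 3184 (12.1%) at an unadjusted p under 0.05, and 0 of those 3 were among the 180. This count rests on 1 pair. Without EAS, whose replicate 3 has the label of 5 April, 186 features were called between replicates 3 and 2, more than the 90 between the late and early days without EAS. With EAS in, leaving out AS, Emb, End or Per gave 0 or 1 feature. The number of calls therefore does not order the longer against the shorter interval. Among the risen features 71 of 110 were higher in replicate 3 than in replicate 2 on the mean of tissues (64.5% against 49.4% of tested features), and among the fallen 43 of 70 were lower (61.4% against 50.6%). The tissues did not all go this way. The median log2 ratio of the fallen features was -0.37 in EAS, -0.13 in Per and -0.06 in End, but 0.13 in AS and 0.19 in Emb. For the risen features it was 0.44 in AS, 0.23 in Per, 0.22 in Emb and 0.09 in EAS, but -0.18 in End.

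Within 1 tissue there is 1 library a day, so the spread of ratios is given without a test. Over all tested features, 763 (2.90%) lay past 2-fold between the late and early library of AS, 787 (2.99%) in Emb, 2233 (8.49%) in EAS, 2066 (7.85%) in End and 1576 (5.99%) in Per. More lay higher than lower late in each tissue: 1.65% against 1.25% in AS, 1.87% against 1.12% in Emb, 5.92% against 2.57% in EAS, 5.56% against 2.29% in End and 4.03% against 1.96% in Per. These counts include features of few reads, and a smaller prior count raised the AS count to 1938. Among the 17080 features with a mean of at least 5 CPM, the share past 2-fold was 1.14% in AS, 1.57% in Emb, 4.48% in EAS, 2.56% in End and 1.63% in Per. The same share between replicates 3 and 2 was 2.96% in AS, 1.81% in Emb, 4.79% in EAS, 0.960% in End and 1.43% in Per. The share was thus lower for replicate 4 over 1 than for replicate 3 over 2 in AS, Emb and EAS, and higher in End and Per. In EAS the label of replicate 3, 5 April, does not make the second pair a 3-day one. The interquartile range of the log2 ratio for replicate 4 over 1 was 0.196 in AS, 0.209 in Emb, 0.314 in EAS, 0.306 in End and 0.322 in Per. For replicate 3 over 2 the order differed, with 0.317 in AS, 0.289 in Emb, 0.269 in EAS, 0.284 in End and 0.203 in Per, so AS had the narrowest range of ratios in the first pair and the widest in the second. In EAS the range was wider, but the share past 2-fold lower, for replicate 4 over 1.

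**Figure D2:**
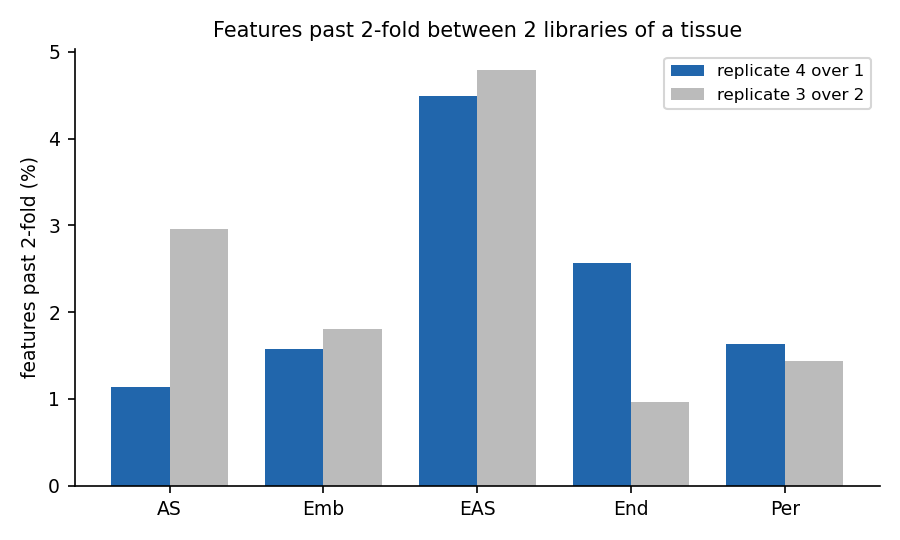
Share of the 17080 features of at least 5 CPM that lay past 2-fold between 2 libraries of a tissue (percent, axis from 0), for replicate 4 over 1 and for replicate 3 over 2. The bar for replicate 4 over 1 is the higher one in End (2.56% against 0.960%) and the lower one in AS (1.14% against 2.96%).

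The files list genes by identifier, and no table at hand pairs these identifiers with gene names, so only 2 risen and 2 fallen identifiers are given and no function is stated for them. They are those with the largest fold among called features that moved the same way in 5 of 5 tissues and had a mean of at least 5 CPM on the higher day. Zm00001d033987 fell most, with a log2 fold change of -4.41 (edgeR adjusted p = 0.00097). It had 16.4 CPM in EAS, 9.76 in End, 3.49 in Per, 0.892 in Emb and 0.712 in AS early. Late it had 0.695 CPM in EAS, 0.423 in End, 0.264 in Per, 0 reads in Emb and 0.0403 CPM in AS, so each tissue's late library was far below its early one. The mean log2 ratio over tissues was -4.003 ± 0.608 (SD, n = 5). Replicate 2 was already at 2.49 CPM in EAS, 2.97 in End and 0.297 in Per. In SAL it stood at 1.21 CPM in replicate 1 and 0.0850 CPM in replicate 4.

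Zm00001d008841 fell by 2.79 on the log2 scale (edgeR adjusted p = 0.0055). It was an endosperm-weighted transcript, with 258 CPM in End and 158.8 CPM in EAS early, against 11.01 in Per, 6.18 in Emb and 5.88 in AS. Its late levels were 53.4 CPM in End, 18.1 in EAS, 2.42 in Per, 0.372 in Emb and 0.543 in AS. End passed through 148 CPM in replicate 2 and 93.3 CPM in replicate 3, and EAS through 52.8 and 22.6 CPM, so both endosperm tissues declined step by step. SAL went from 12.02 to 2.07 CPM. The mean log2 ratio over tissues was -2.96 ± 0.74 (SD, n = 5), and the calls of both fallen features held with each pair left out in turn.

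Among the risen features, Zm00001d051798 had a log2 fold change of 1.81 (edgeR adjusted p = 0.0490), and its level lay mostly in the pericarp. Per held 6.24 CPM early, 4.63 and 7.51 CPM in replicates 2 and 3, and 33.0 CPM late. EAS went from 0.5004 to 1.65 CPM, End from 0.505 to 0.746, AS from 0.0610 to 0.0805 and Emb from 0.0207 to 0.0413. In AS that was 3 against 4 reads and in Emb 1 against 2 reads, too few to set apart. The early and late values overlap across tissues, and the mean log2 ratio was 1.04 ± 0.93 (SD, n = 5), an SD close to the mean. In SAL, which holds more of it than the other tissues except Per, it went from 4.09 to 3.11 CPM, the other way. Its call was lost without AS (adjusted p = 0.0960), EAS (0.0871), Emb (0.112) or Per (0.269), with the log2 fold change at 1.08 without Per.

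Zm00001d043652 rose by 1.48 on the log2 scale (edgeR adjusted p = 0.00915), again with its highest level in Per. There it had 7.89, 9.43, 12.2 and 23.3 CPM in replicates 1 to 4. End went from 0.772 to 1.99 CPM, EAS from 0.286 to 0.983, AS from 0.142 to 0.322 and Emb from 0.0622 to 0.124. The mean log2 ratio was 1.23 ± 0.41 (SD, n = 5), and SAL moved the same way, from 3.48 to 8.23 CPM. Without the Per pair the adjusted p was 0.114, with a log2 fold change of 1.40.

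**Figure D3:**
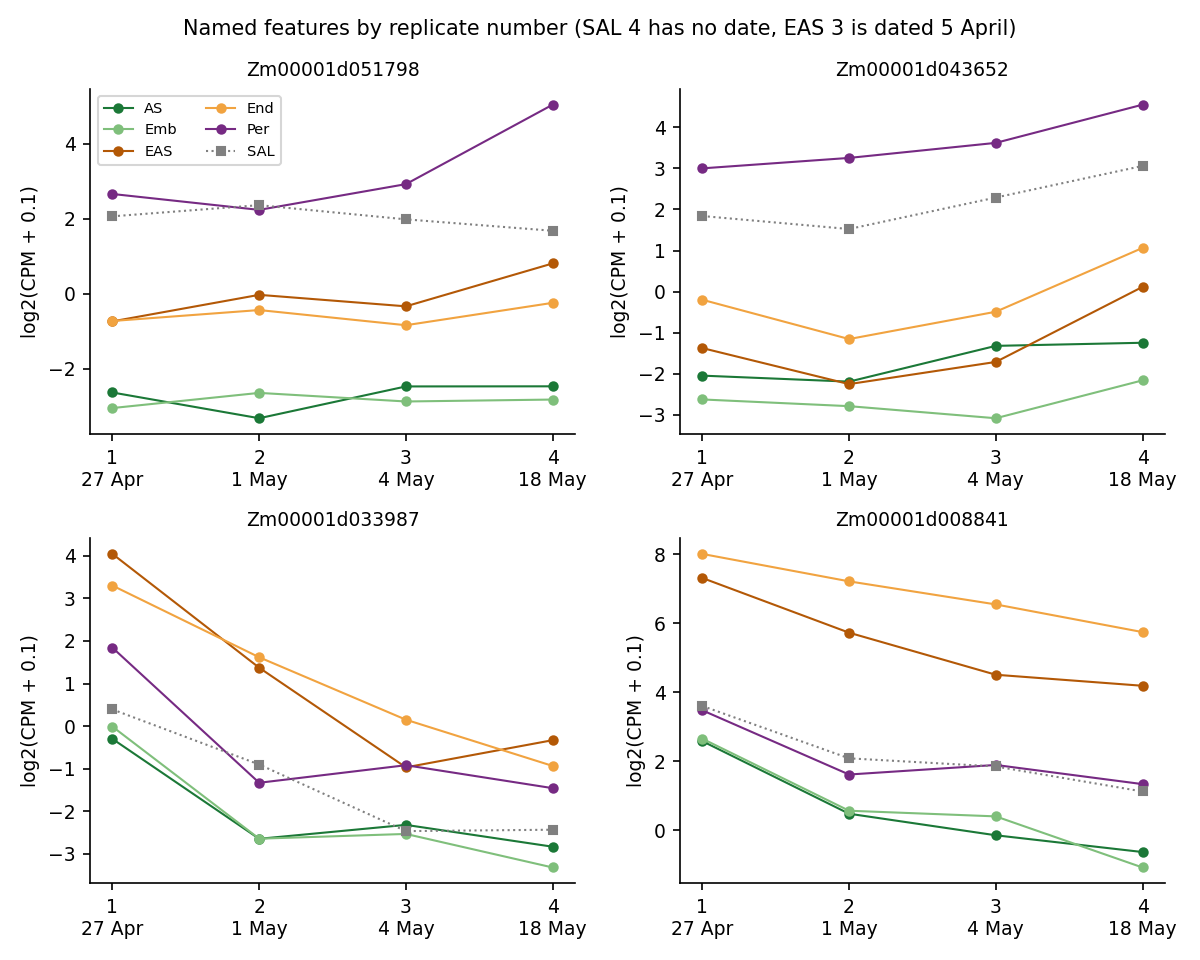
Level of the 4 named features in every library, as log2(CPM + 0.1) by replicate number, with 1 point per library and 1 line per tissue. Zm00001d008841 lies lower in each tissue's replicate 4 than in its replicate 1, from 258 to 53.4 CPM in End, while Zm00001d051798 separates mainly in Per, from 6.24 to 33.0 CPM.

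Whether the difference between the days depended on the compartment was tested between the 2 embryo tissues (AS and Emb) and the 2 endosperm tissues (EAS and End). The change differed for 190 of 25026 features (0.759%, edgeR interaction test, adjusted p under 0.05), with 3666 (14.6%) at an unadjusted p under 0.05. For 122 the late-minus-early change was higher in the endosperm tissues and for 68 it was lower. Of the called features, 100 had a lower mean in the embryo tissues and a higher one in the endosperm tissues on the late day, and 54 the reverse, which is 81.1% with opposite signs, beside 42.1% of all tested features. The test selects features whose changes differ, which favours opposite signs, so this share describes the calls. A further 21 had higher and 15 had lower means in both compartments. The count moved widely with the pairs, at 69 without AS, 65 without Emb, 767 without EAS and 1071 without End, and each of these fits leaves 1 compartment with a single pair, which is assumed to vary like the other compartment.

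By library, the 122 features had a geometric mean of 34.1 CPM early and 22.4 CPM late in AS, and of 29.3 and 18.9 CPM in Emb. They had 4.45 and 8.88 CPM in EAS and 9.34 and 18.0 CPM in End. Among the 4 tissues tested they were thus most abundant in the embryo tissues early, and about equal in Emb and End by the late day. The 68 features went from 25.2 to 12.6 CPM in EAS and from 38.9 to 19.3 CPM in End, and from 14.8 to 18.0 CPM in AS and 13.5 to 16.4 CPM in Emb. Beside this, the summed level of the 14 Emb-enriched features was higher late by 0.96 in EAS and 0.63 in End (log2), and that of the 193 features shared by AS and Emb by 0.34 and 0.11. The part of these embryo transcripts in the result was not tested. Per, which the test did not use, had 20.9 early and 25.1 CPM late for the 122 features and 18.7 and 17.2 CPM for the 68. SAL, also outside the test, had 29.6 CPM in replicate 1 and 30.9 CPM in replicate 4 for the 122, and 14.9 and 12.5 CPM for the 68. In replicates 2 and 3 the 122 stood at 6.43 and 4.77 CPM in EAS and at 12.9 and 11.7 CPM in End. Early and late levels of the 4 tested tissues chose these features, so they describe the calls.

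**Figure D4:**
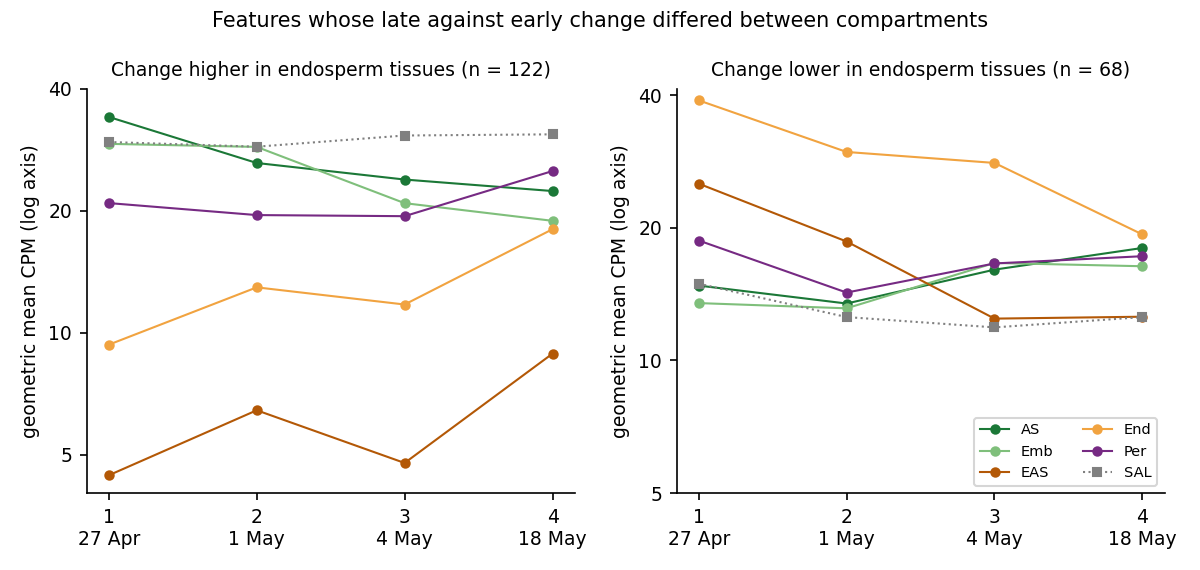
Geometric mean level (CPM, log axis) in each library of the 122 features whose change was higher and the 68 whose change was lower in the endosperm tissues, by replicate number; Per and SAL were not in the test, SAL replicate 4 has no date and EAS replicate 3 is labelled 5 April. The 122 features went from 34.1 to 22.4 CPM in AS and from 9.34 to 18.0 CPM in End.

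Tissue-enriched features were followed across the days as a measure of material from a neighbouring tissue. The lists were those of replicates 2 and 3, and 7 of the 180 called features are in one of them. By list, 2 of 32 EAS, 3 of 204 Per, 1 of 193 AS and Emb and 1 of 65 EAS and End features were called. The Emb, End and SAL lists held 0 called features, and 0.684% of all tested features were called. The 15 End features went in EAS from 2040 to 956 CPM in sum (log2 ratio -1.09) and in End itself from 10330 to 7603 CPM. The 14 Emb features went in EAS from 15.3 to 29.8 CPM and in End from 5.58 to 8.65 CPM, against 1245 and 1390 CPM in Emb. The 204 Per features went in End from 712 to 994 CPM, and their mean log2 ratio over the 4 other tissues was 0.21 ± 0.18 (SD, higher late in 4 of 4). The 4 SAL features were higher late in 5 of 5 tissues, with a mean log2 ratio of 0.41 ± 0.36 (SD), and most so in EAS, at 38.3 and 77.6 CPM. The 65 features shared by EAS and End went in EAS from 143407 to 100955 CPM and in End from 221534 to 185261 CPM. In replicates 2 and 3 these 65 stood at 74224 and 110025 CPM in EAS and at 165631 and 208915 CPM in End. The 15 End features stood at 697 and 754 CPM in EAS in those replicates. In each case replicate 2 lay below both the early and the late level, so these sums did not change step by step. The part of these shifts in the called features was not tested.

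MicroRNA loci are the features that the files name. MicroRNAs are short RNAs cut from longer, polyadenylated precursors, and they steer the switch between growth phases, organ identity and nutrient responses in plants. Poly(A) libraries count the precursor, not the mature microRNA. Of 154 loci, 56 had 0 reads in the 10 libraries, 52 others were below the count filter and 46 were tested. None was called between the days by edgeR or DESeq2, beside 0.684% called among all tested features, and 2 (4.35%) had an unadjusted p under 0.05 in edgeR, beside 16.0%. At the share over all features, no call among 46 loci is the background. The log2 fold change was above 0 for 35 and below 0 for 11, with a median of 0.18, beside 0.02 over all tested features. The 7 tested loci of MIR156, a family known for the phase change from juvenile to adult growth, all had log2 fold changes above 0, with a median of 0.40 and 0 calls. The 4 loci of MIR172, which acts in the same phase change, were below the filter. Of 12 tested loci of MIR160, MIR167, MIR390 and MIR393, families linked to auxin response and signalling, 8 were above 0 and 0 were called. The 4 tested copper-linked loci (MIR398a, MIR398b, MIR408b and MIR528a) had a median of 0.11. The 13 MIR395 loci, known from sulfate starvation, had 0 tested members.

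MIR167g was the most abundant locus. It had 47.6 CPM in EAS, 55.4 in End, 4.94 in Emb, 2.91 in Per and 1.47 in AS early, and 49.2, 61.7, 6.65, 4.53 and 3.06 CPM late. It was higher late in 5 of 5 tissues, by least in EAS and End, where it was most abundant, with a log2 fold change of 0.38 (edgeR adjusted p = 0.217). MIR156j lay mainly in EAS, at 6.41 CPM early and 10.1 CPM late (log2 fold change 0.46, edgeR adjusted p = 0.350). MIR156e lay in the embryo tissues, at 7.53 and 8.23 CPM in AS and 8.30 and 10.4 CPM in Emb. MIR166d, of the family that limits leaf-polarity transcription factors, was also an embryo locus, at 5.68 and 6.44 CPM in AS and 5.60 and 6.42 CPM in Emb. MIR167a had 4.87 and 5.80 CPM in Emb and 4.185 and 4.33 CPM in End. The other 5 of the 10 most abundant loci, MIR159a, MIR164b, MIR398b, MIR169c and MIR156b, had fold changes on the log2 scale from -0.02 to 0.51. Besides MIR167g, MIR166d, MIR159f and MIR396a were higher late in 5 of 5 tissues, and 0 loci were lower in all of them. That makes 4 of the 46 tested loci, beside 15.8% of all tested features that moved 1 way throughout, so it does not exceed the background. MIR399j, of the phosphate-starvation family, had the second p under 0.05, at 0.387 and 0.101 CPM in AS and 0.249 CPM and 0 reads in Emb, with 0 reads in the other 6 libraries (log2 fold change -2.57, edgeR adjusted p = 0.261). Its level was too low for a firm value, and DESeq2 gave it no adjusted p.

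**Figure D5:**
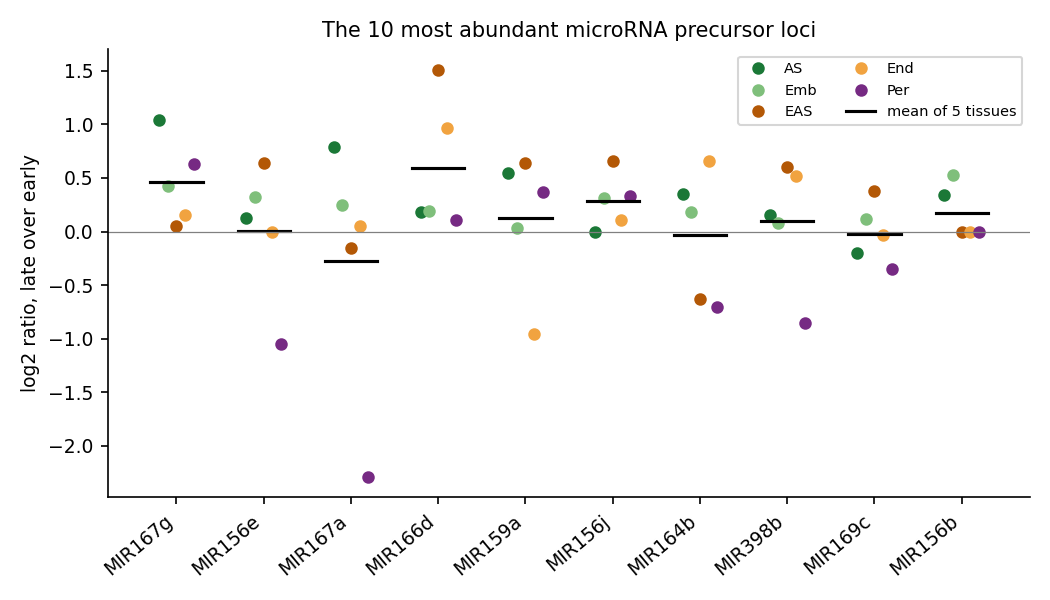
Log2 ratio, late over early, of the 10 most abundant microRNA precursor loci, with 1 point per tissue and a bar at the mean of 5 tissues; a point at 0 can be a locus with 0 reads on both days. MIR167g and MIR166d have every point above 0, and MIR167a spreads most widely.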

How the data were processed

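Per the labels' protocols, unstranded paired-end TruSeq libraries were made from poly(A) RNA of 100 mg of tissue. TopHat2, Bowtie2 and the build B73 RefGen_v4 are named in the submitters' processing notes; versions, the counter and its settings were not given in the sources used here. What the authors deposited were raw read counts per feature (41614 gene identifiers and 154 microRNA loci). No test or library size includes the 5 summary rows, which in the 10 libraries hold multiply placed records (7.81% to 15.4%), records outside genes (4.39% to 6.17%) and ambiguous ones (1.07% to 2.63%). Near-identical gene copies and overlapping genes are uncertain. Of the identifiers, 0 matched the 49888 genes of the table for Zm-B73-REFERENCE-NAM-5.0, so the gene lists by name were not run.

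Counts were fitted in R 4.3.3 with edgeR 4.0.16 (filterByExpr with a minimum count of 10, TMM, glmQLFit and glmQLFTest, Benjamini-Hochberg over all features tested). Tissue was the block: late and early libraries of 1 tissue formed a pair, since tissues differ far more than days. CPM use TMM-scaled library sizes of 24 libraries, and log2 ratios within a tissue add a prior count of 2. Single measures were compared by exact sign-flip tests. Named identifiers are the 2 per direction with the largest fold among 95 risen and 61 fallen features that met the level and direction rule, and the 10 most abundant microRNA loci are named. DESeq2 1.42.0, other scalings, filters and left-out pairs were alternatives. The fits were tested on simulated data. No late and early library of a tissue was a repeat deposit of the other (chi-square per degree of freedom of 16.5 or more). P-values measure the spread between these pairs, which may be in part technical. The pairs are tissues that share 1 harvest label on each side, so the p-values do not measure the spread between harvests. The members and lists were chosen with earlier results of these data known.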

Additional observations from a re-analysis of the deposited data

Results flagged for a closer look

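For 4 features the late-minus-early change differed between the endosperm tissues (EAS and End) and the embryo tissues (AS and Emb). They are the 2 largest differences in each direction among 153 features that reached a mean of at least 5 CPM in a compartment on one day and moved the same way in both tissues of each compartment. This rule was set after the values of this comparison had been seen, and larger differences among features that did not meet it are not named. All p-values are edgeR interaction tests adjusted over 25026 features.

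For Zm00001d039941 the log2 difference was 5.61 (adjusted p = 0.00104). It went from 11.4 to 8.31 CPM in AS and from 12.5 to 8.26 CPM in Emb, and in End from 0.148 to 5.15 CPM, while EAS had 0 reads early and 3 reads late. Without the End pair the adjusted p was 0.210. Replicates 2 and 3 of End stood at 0.201 and 0.244 CPM, so the late End library alone is high.

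Zm00001d023402 had a log2 difference of 4.36 (adjusted p = 0.00104). It went down from 12.1 to 2.88 CPM in AS and from 7.22 to 1.26 CPM in Emb, and up from 0.357 to 2.04 CPM in EAS and from 1.69 to 6.39 CPM in End. The days between did not follow that order throughout, since EAS had 0.661 CPM in replicate 2 and 0.128 CPM in replicate 3.

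The log2 difference of Zm00001d028408 was -3.03 (adjusted p = 0.0120). It went from 10.4 to 0.647 CPM in End and from 2.76 to 0.408 CPM in EAS, and changed less in AS, from 7.14 to 5.25 CPM, and in Emb, from 5.37 to 3.57 CPM. End was already at 1.95 and 1.25 CPM in replicates 2 and 3. Outside the test, Per fell from 2.43 to 0.902 CPM and SAL from 2.66 to 0.918 CPM, so the fall was not limited to the endosperm tissues. Without the AS pair the adjusted p was 0.0591.

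Zm00001d039933 had a log2 difference of -4.34 (adjusted p = 0.00104). It went from 36.4 to 1.27 CPM in End and from 17.8 to 0.408 CPM in EAS, while Emb went from 3.84 to 2.29 CPM. AS held 13 reads early and 10 reads late. In replicate 2 it stood at 4.57 CPM in End and 1.39 CPM in EAS, already far below replicate 1. Per, outside the test, went from 10.3 to 2.99 CPM and SAL from 13.9 to 2.65 CPM, in the direction of the endosperm tissues.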

How the results depend on the processing

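Between the late and early days, every call with RLE size factors (94 risen, 68 fallen) was among the 180, as were 170 of 181 with upper-quartile factors and 145 of 152 with a filter of 1 CPM in 5 libraries. Of the 4 named features, Zm00001d008841 alone passed that filter, and it kept its call. DESeq2 gave 793 calls (519 risen, 274 fallen), 175 of them among the 180, no filter gave 303 (198 risen), and a 2-fold minimum left 43 (15 risen, 28 fallen). With one pair left out, calls ranged from 30 to 90, risen ones from 10 to 49 and fallen ones from 20 to 41, and the risen share from 33.3% to 54.4%, beside 61.1% with 5 pairs. With all 4 replicates of the 5 tissues fitted, 137 features fell, the risen share was 46.7% and 102 of the 180 were called. Without the replicate block (tissue as the pair), 0 features were called, risen 0 and fallen 0, and the 4 named features lost their calls.

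The compartment difference ranged from 65 to 1071 calls with a pair left out and from 176 to 276 under another scaling or filter. Replicate 3 against 2 gave 44 calls with no filter and 0 to 186 with a pair left out. Counts past 2-fold within a tissue depended on the prior count: at 0.5, AS had 1938 and Emb 1836; at 5, AS had 354, EAS 1295, Emb 396 and End 1311. The mean log2 ratio of the EAS list outside EAS was 0.06 with 8-fold lists, -0.0061 with 4-fold and -0.18 with 16-fold lists. With 16-fold lists it was 0.97 for Emb, 0.41 for Per and 0.56 for EAS and End. The cause of these shifts was not tested. None of the 46 microRNA loci was called in any setting run, but not every locus had a result in each setting. MIR399j, for example, had no adjusted p in DESeq2. With 1 library per tissue and day and 5 pairs, no test of a single measure could pass 0.05, and levels under about 0.1 CPM rest on a few reads.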

Other observations

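Zm00001d045959 was singled out after its values were seen. It had the largest rise between the days, with 0 reads in the 5 early libraries and 204 reads in the 5 late ones, at least 65.3-fold higher against a floor of 3 reads summed over the early libraries (edgeR adjusted p = 0.0390). Its level did not follow the calendar. All 6 tissues, SAL included, had 7 to 73 reads in replicate 2 and 15 to 92 reads in replicate 4, but 0 or 1 read in replicate 1 and 0 to 2 reads in replicate 3. The late libraries had 58 reads in AS, 35 in Emb, 15 in EAS, 15 in End and 81 in Per. In replicate 2 the same tissues had 25, 58, 7, 8 and 73 reads. It was the only feature with at least 5 reads in every library of some replicate numbers and at most 2 in every library of the others. This rule asks for reads in all 6 tissues, so patterns of some tissues only, or of graded level, were not counted. Pericarp held the highest level among the 5 tissues, at 1.78 CPM in replicate 4 and 1.21 CPM in replicate 2, and EAS the lowest, at 0.360 and 0.154 CPM.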
